A study of Mus musculus with 6 samples.

Results

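The miR-148 and miR-152 family was described in the renal cortex of C57BL/6 mice given a steatohepatitis-inducing diet with or without tofogliflozin. Its members were the 5 mature miRNAs mmu-miR-148a-3p, mmu-miR-148a-5p, mmu-miR-148b-3p, mmu-miR-148b-5p and mmu-miR-152-3p (written here without the species prefix), found by name among the 1900 distinct mature names of the deposited tables. All 5 passed the filter on low counts, which left 460 miRNAs for testing. The diet-only group was 3 mice fed the diet labelled HF/HC/HS/BA, rich in fat and cholesterol and containing bile salt, for 8 weeks. The other group was 3 mice fed the same diet with tofogliflozin for 8 weeks. Tofogliflozin inhibits SGLT2, the cotransporter that recovers glucose from the filtrate in the proximal tubule. Both groups thus shared the diet, and mice on another diet were not analysed here. The labels do not state the age or sex of the mice.

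A microRNA is cut from a hairpin precursor, and the 5p and 3p arms of the hairpin can each give a mature strand of which usually 1 is kept. The kept strand guides an Argonaute protein to messenger RNAs that match its seed, the bases from position 2 to 8. miR-148a-3p is known for repressing the DNA methyltransferase DNMT1 and, in liver, the LDL receptor and the cholesterol transporter ABCA1. miR-148b-3p and miR-152-3p are its paralogs, and miR-152-3p is likewise described as acting on DNMT1.

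The mature 3p strands are shown because a common seed is what joins them into a family. They come from RefSeq (build GRCm38.p6, which is mm10 with patches), where all 5 members matched by name. Capitals mark the seed.
miR-148a-3p: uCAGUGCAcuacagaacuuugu
miR-148b-3p: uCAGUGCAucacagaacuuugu
miR-152-3p: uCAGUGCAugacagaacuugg
All 3 carry the seed CAGUGCA, and no other of the 1679 mature names in the RefSeq table has it. Counting positions from 1 at the 5′ end, miR-148a-3p and miR-148b-3p differ by C9U and U10C (base of miR-148a-3p first) and are identical at 20 of 22 positions. Against miR-152-3p, which is 21 bases long, miR-148a-3p differs by C9U, U10G and U20G and is identical at 18 of 21. miR-148b-3p and miR-152-3p differ by C10G and U20G, with 19 of 21 identical. How the counting treated a read with an error at these positions is not given in the sources used here, so counts of the paralogs may not be fully separate.

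The 5p strands are shown with the same marking, together with miR-152-5p, the other arm of the miR-152 hairpin, which is not a member.
miR-148a-5p: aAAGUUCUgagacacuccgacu
miR-148b-5p: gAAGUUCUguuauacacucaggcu
miR-152-5p: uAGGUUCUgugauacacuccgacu
miR-148a-5p and miR-148b-5p share the seed AAGUUCU, which no other mature miRNA of the table carries. The seed of miR-152-5p differs from it by 1 base, A3G with the base of miR-148a-5p first. All 3 of the 3p strands begin with U, while the 5p strands begin with A, G and U for miR-148a-5p, miR-148b-5p and miR-152-5p.

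The hairpins are shown because the arms are compared further on. Capitals mark the 5p arm and then the 3p arm.
miR-148a: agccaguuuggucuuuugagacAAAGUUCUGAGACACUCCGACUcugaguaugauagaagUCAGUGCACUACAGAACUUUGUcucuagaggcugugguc
miR-148b: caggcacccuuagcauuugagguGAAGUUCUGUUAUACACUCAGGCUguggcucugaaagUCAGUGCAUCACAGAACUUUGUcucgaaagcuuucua
miR-152: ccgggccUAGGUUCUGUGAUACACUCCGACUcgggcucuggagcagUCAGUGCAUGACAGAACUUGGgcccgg
The miR-148a hairpin lies at chr6:51269812-51269910 on the minus strand, and in the GENCODE M21 annotation no gene other than its own overlaps it. The miR-148b hairpin lies at chr15:103285125-103285221 on the plus strand, in an intron of Copz1 on the same strand. The miR-152 hairpin lies at chr11:96850393-96850465 on the plus strand, in an intron of Copz2 on the same strand. Copz1 and Copz2 are paralogs that encode the zeta subunit of coatomer, the coat of transport vesicles of the Golgi apparatus. The arms are separated by 16 bases in miR-148a, 13 in miR-148b and 15 in miR-152.

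Libraries held 6643638 to 22886200 counts when each mature name was counted once, the fewest in tofogliflozin replicate 2. That library stood apart on the first principal component of log2 CPM (52.0% of the variance, score 13.8 against -6.17 to 0.141 in the other 5), with tofogliflozin replicate 3 at the opposite end. Summed over the 8 kidney tubule miRNAs of the marker list, all of them detected, the level was 161652 to 171921 CPM on the diet alone and 149297 to 173707 CPM with tofogliflozin, where CPM is the count scaled to the library size with TMM factors. Most of that sum came from miR-10a-5p, miR-192-5p and miR-30a-5p. 0 of these 8 passed the edgeR test, and the groups did not overlap for 1 of them, the epithelial miR-204-5p, at 275 ± 21.6 CPM and 442 ± 62.3 CPM (SD of 3 mice each; edgeR adjusted p = 0.387), where 12.0% of all 460 miRNAs did not overlap. The 6 leukocyte miRNAs summed to 1554 to 2765 CPM on the diet alone and 1315 to 1477 CPM with tofogliflozin, nearly all of it miR-146a-5p, the 1 of the 6 whose groups did not overlap (1912 ± 624 CPM and 1266 ± 85.7 CPM, SD of 3 mice each; edgeR adjusted p = 0.854). Of the 6, 0 passed, 5 had a log2 fold change below 0, and miR-155-5p was at 0.29 ± 0.37 (SE). Of the 3 listed erythroid miRNAs, 2 passed the filter on low counts, miR-486-5p and miR-451a. Together these summed to 46.4 to 164 CPM on the diet alone and 83.6 to 222.96 CPM with tofogliflozin. The hepatocyte miRNA miR-122-5p was at 40.7 to 78.6 CPM on the diet alone and at 45.8 to 245 CPM with tofogliflozin, highest in tofogliflozin replicate 2. None of these marker miRNAs was at 0 in all libraries, and the part of these markers in the results on the family was not tested. In bulk tissue, fewer cells of a type and less RNA per cell cannot be told apart.

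All 3 of the 3p strands of the family were abundant, and none of the 5 members differed detectably between the groups. miR-148a-3p held rank 27 of 460 by mean CPM, miR-152-3p rank 44 and miR-148b-3p rank 72. The opposite strands miR-148b-5p and miR-148a-5p held ranks 243 and 320. In edgeR's quasi-likelihood test 0 of 5 members passed an adjusted p of 0.05, beside 0% of all 460 miRNAs, and 0 of 5 had an unadjusted p under 0.05, beside 5% of all. DESeq2 and limma-voom likewise called 0 of the 5. For 0 of 5 members did the groups not overlap, against 12.0% of all 460 miRNAs. Libraries of 1 group are separate mice per the series' design text, so these tests measure the spread between mice.

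miR-148a-3p was counted 121169, 74104 and 84245 times in diet-only mice 1, 2 and 3, and 73629, 28696 and 95003 times in tofogliflozin mice 1, 2 and 3. Scaled, this was 5334, 5419 and 5474 CPM on the diet alone and 5445, 4280 and 5253 CPM with tofogliflozin. Tofogliflozin replicate 2 was low, and the other 5 libraries lay within 5253 to 5474 CPM. The group values were 5409 ± 70.4 CPM and 4993 ± 625 CPM (SD of 3 mice each), a log2 fold change of -0.12 ± 0.12 (SE; interval -0.39 to 0.16; edgeR adjusted p = 0.877; exact permutation p = 0.3, where 0.1 is the smallest that 3 against 3 mice allow). The fold change interval runs from 0.761 to 1.12. Without tofogliflozin replicate 2, the log2 fold change was -0.014 ± 0.082. In that library miR-143-3p, 1 of the 2 smooth muscle miRNAs of the marker list, was also low, at 31421 CPM against 52227 to 58181 CPM in the other 5. The second, miR-145a-5p, was highest there, at 423 CPM against 316 to 363 CPM, and so was miR-122-5p. The 2 smooth muscle miRNAs summed to 52573 to 57181 CPM on the diet alone and 31844 to 58500 CPM with tofogliflozin. The part of these miRNAs in the low value of miR-148a-3p was not tested.

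miR-152-3p was counted 37837, 25981 and 27408 times on the diet alone and 24429, 9978 and 35402 times with tofogliflozin. Its levels were 1666, 1900 and 1781 CPM in diet-only mice 1, 2 and 3 and 1807, 1488 and 1958 CPM in tofogliflozin mice 1, 2 and 3. The lowest and the highest library were both in the tofogliflozin group. At 1782 ± 117 CPM and 1751 ± 240 CPM (SD of 3 mice each) the log2 fold change was -0.025 ± 0.13 (SE; interval -0.33 to 0.28; edgeR adjusted p = 0.988; exact permutation p = 0.9), a fold of 0.793 to 1.22. Its sign turned with library totals alone as the scale (0.015), when diet-only replicate 2 (0.053) or tofogliflozin replicate 2 (0.081) was left out.

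miR-148b-3p was counted 16962, 10524 and 12632 times on the diet alone and 11548, 5283 and 12874 times with tofogliflozin. The levels were 747, 770 and 821 CPM in diet-only mice 1, 2 and 3 and 854, 788 and 712 CPM in tofogliflozin mice 1, 2 and 3. Here tofogliflozin replicate 2 lay among the other libraries, and tofogliflozin replicate 3 was lowest. The groups were at 779 ± 37.9 CPM and 785 ± 71.1 CPM (SD of 3 mice each), with a log2 fold change of 0.010 ± 0.12 (SE; interval -0.27 to 0.29; edgeR adjusted p = 0.989; exact permutation p = 1), a fold of 0.832 to 1.22. The sign turned with upper quartile size factors (-0.025), with no filter (-0.014) and without diet-only replicate 1 (-0.00023) or tofogliflozin replicate 1 (-0.0058).

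**Figure D1:**
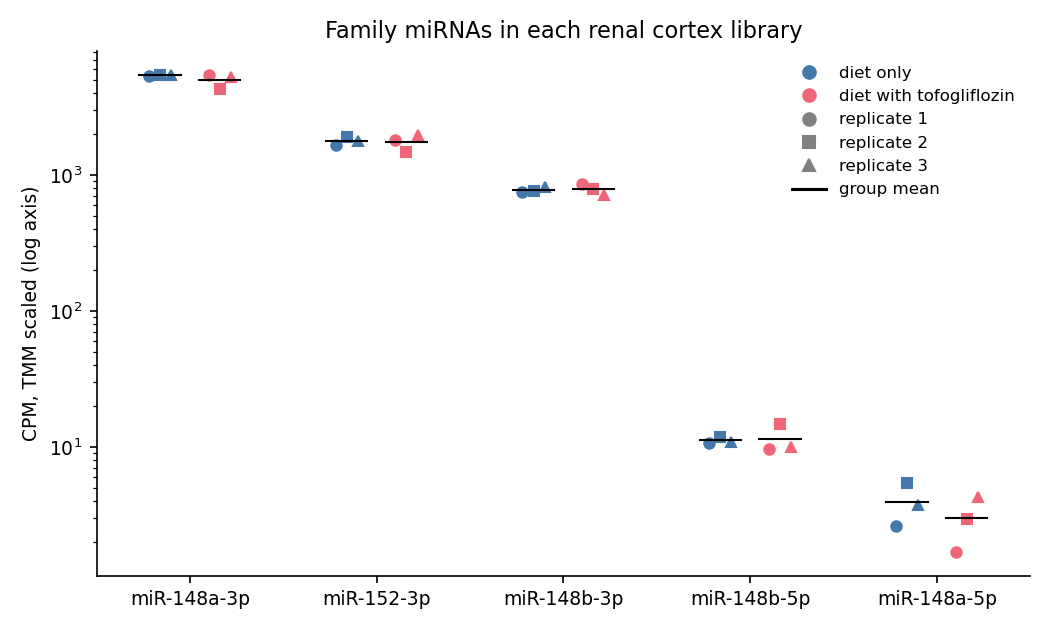
CPM on a log axis of the 5 members in each library (points; symbol shape gives the replicate) with the mean of each group (line). The order of the members is the same in both groups, and the points of the groups overlap for each member.

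miR-148b-5p, the opposite strand of the miR-148b hairpin, was counted 245, 163 and 169 times on the diet alone and 131, 99 and 180 times with tofogliflozin. Its levels were 10.8, 11.9 and 10.98 CPM in diet-only mice 1, 2 and 3 and 9.69, 14.8 and 9.95 CPM in tofogliflozin mice 1, 2 and 3. Tofogliflozin replicate 2 was high and the other 5 lay within 9.69 to 11.9 CPM. The log2 fold change was 0.018 ± 0.22 (SE; interval -0.50 to 0.53; edgeR adjusted p = 0.989; exact permutation p = 1). It was -0.19 without tofogliflozin replicate 2, and its sign also turned with upper quartile size factors, no filter and limma-voom.

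miR-148a-5p, the opposite strand of the miR-148a hairpin, was the least abundant member, with counts of 60, 75 and 58 on the diet alone and 23, 20 and 78 with tofogliflozin. Its levels were 2.64, 5.48 and 3.77 CPM in diet-only mice 1, 2 and 3 and 1.70, 2.98 and 4.31 CPM in tofogliflozin mice 1, 2 and 3. High and low libraries occurred in both groups. At 3.96 ± 1.43 CPM and 3.00 ± 1.31 CPM (SD of 3 mice each) its log2 fold change was -0.38 ± 0.42 (SE; interval -1.34 to 0.59; edgeR adjusted p = 0.877; exact permutation p = 0.5). The interval covers folds from 0.394 to 1.51, wider than those of the 3p strands. The value was -0.77 ± 0.45 without tofogliflozin replicate 3 and -0.045 ± 0.40 without tofogliflozin replicate 1.

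**Figure D2:**
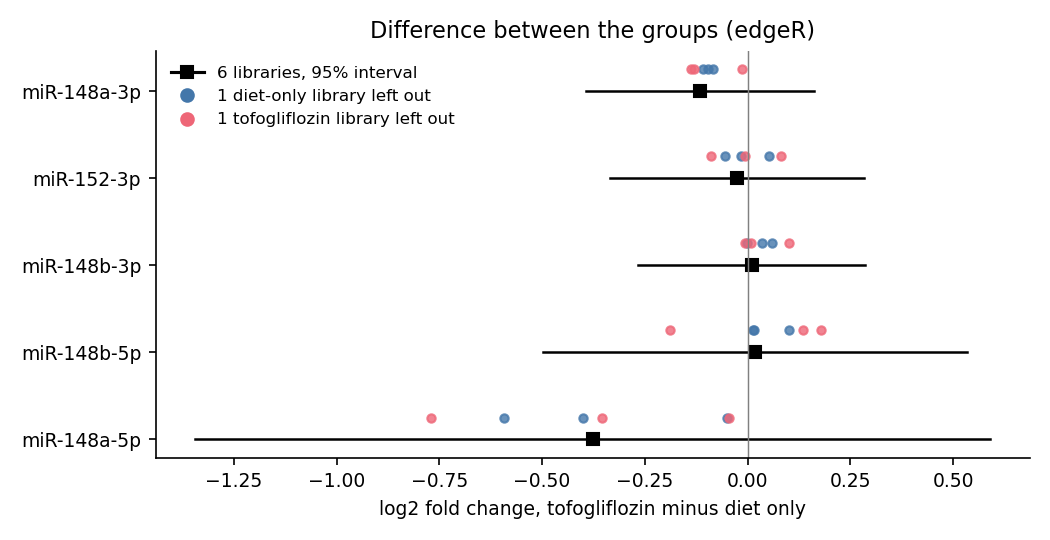
Log2 fold change of each member, tofogliflozin minus diet only (squares), with its 95% interval (lines) and the value with 1 library left out (circles, coloured by the group of that library). Each interval includes 0, and those of the 5p strands are the widest, up to -1.34 to 0.59 for miR-148a-5p.

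From library to library the 3p strands varied less than a typical miRNA. The coefficient of variation of the CPM over all 6 libraries was 8.81% for miR-148a-3p, 9.60% for miR-152-3p and 6.53% for miR-148b-3p. Its median was 23.6% over all 460 miRNAs and 12.3% over the 100 most abundant. Of those 100, 35 varied less than miR-148a-3p, 38 less than miR-152-3p and 17 less than miR-148b-3p. For the 5p strands it was 16.3% (miR-148b-5p) and 38.3% (miR-148a-5p). These are descriptions, with no test.

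The pattern over libraries was not shared by all 3 paralogs. Likeness was measured as the root mean square difference of log2 CPM, each centred on its mean over the 6 libraries. miR-148a-3p and miR-152-3p differed by 0.082, miR-148a-3p and miR-148b-3p by 0.15, and miR-148b-3p and miR-152-3p by 0.17. The median against all tested miRNAs was 0.33, 0.32 and 0.34 for miR-148a-3p, miR-148b-3p and miR-152-3p. Other miRNAs lay nearer than the paralogs. Ordered by nearness to miR-148a-3p, miR-152-3p was at place 16 and miR-148b-3p at place 61. By nearness to miR-148b-3p, miR-152-3p was at place 77. In tofogliflozin replicate 2, miR-148a-3p stood 0.28 and miR-152-3p 0.24 below the mean on the log2 scale (centred values -0.28 and -0.24), while miR-148b-3p stood at 0.014. Most like miR-148a-3p were let-7g-5p (0.041), miR-200a-3p (0.044) and miR-16-5p (0.054). Most like miR-148b-3p were miR-10b-5p (0.041), miR-331-3p (0.041) and miR-339-5p (0.049), and most like miR-152-3p were miR-100-5p (0.050), miR-374b-5p (0.051) and miR-99b-5p (0.053). For miR-148b-5p the nearest were miR-34c-5p (0.084), miR-194-2-3p (0.088) and miR-872-3p (0.11). miR-148a-5p had no close neighbour, with miR-383-5p (0.30), miR-132-5p (0.32) and miR-3962 (0.34) the nearest. The 6 points of each comparison share their libraries and size factors.

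**Figure D3:**
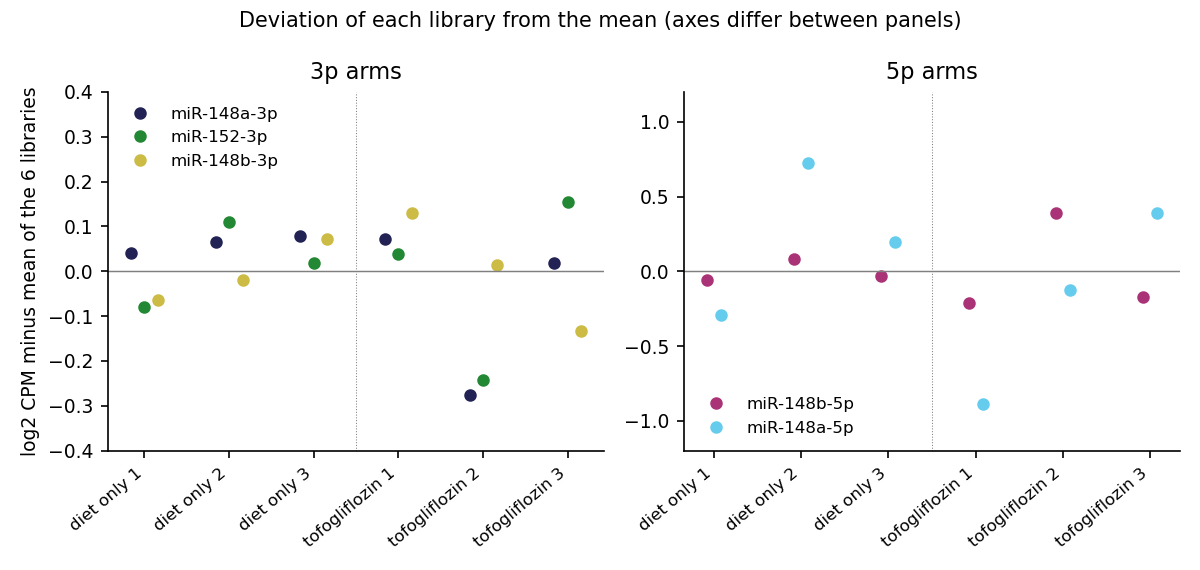
Log2 CPM of each member in each library minus its mean over the 6 libraries, for the 3p arms (left) and the 5p arms (right, wider axis); the dotted line parts the groups. miR-148a-3p and miR-152-3p are at -0.28 and -0.24 in tofogliflozin replicate 2, while miR-148b-3p is at 0.014 there.

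Paralogs were compared next through their counts within a library, which needs no size factor. Mature miRNAs are read whole, so no length enters. Whether strands of different sequence entered the libraries equally well was not tested, for the paralogs or for the arms. In each of the 6 libraries miR-148a-3p was above miR-152-3p, and miR-152-3p above miR-148b-3p. The ranges of neighbours in this order did not overlap, with 4280 to 5474 CPM, 1488 to 1958 CPM and 712 to 854 CPM. miR-148b-5p followed at 9.69 to 14.8 CPM and miR-148a-5p at 1.70 to 5.48 CPM. miR-148a-3p had 3.20, 2.85 and 3.07 counts per count of miR-152-3p in diet-only mice 1, 2 and 3 and 3.01, 2.88 and 2.68 in tofogliflozin mice 1, 2 and 3. Per count of miR-148b-3p it had 7.14, 7.04 and 6.67 counts on the diet alone and 6.38, 5.43 and 7.38 with tofogliflozin. The second ratio was lowest in tofogliflozin replicate 2 and highest in tofogliflozin replicate 3, so the groups overlapped.

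For each paralog ratio the groups overlapped. The exact permutation test cannot decide on a difference at 0.05, because its smallest p for 3 against 3 mice is 0.1. Log2 of miR-148b-3p over miR-148a-3p was -2.80 ± 0.05 on the diet and -2.67 ± 0.22 with the inhibitor (SD of 3 mice each; difference 0.13, exact 2-sided permutation p = 0.5). Log2 of miR-152-3p over miR-148a-3p was -1.60 ± 0.08 and -1.51 ± 0.08 (SD of 3 mice each; difference 0.090, exact permutation p = 0.3). Log2 of miR-148b-3p over miR-152-3p was -1.19 ± 0.10 and -1.15 ± 0.28 (SD of 3 mice each; difference 0.040, exact permutation p = 0.8). Adjusted over these 3 ratios, the exact permutation p was 0.75, 0.75 and 0.8. The first difference was 0.019 without tofogliflozin replicate 2. Without tofogliflozin replicate 3 the first was 0.24 and the third 0.19, each with an exact permutation p of 0.1, the smallest possible.

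As shares of the summed 3p counts, miR-148a-3p held 67.9% ± 0.935 on the diet alone and 66.3% ± 0.948 with tofogliflozin, miR-152-3p 22.3% ± 1.03 and 23.2% ± 1.30, and miR-148b-3p 9.77% ± 0.344 and 10.5% ± 1.52 (SD of 3 mice each). Together the 3p strands made up 0.769%, 0.775% and 0.816% of all counts in diet-only mice 1, 2 and 3 and 0.796%, 0.662% and 0.831% in tofogliflozin mice 1, 2 and 3. All counts here means the total with each mature name counted once. In diet-only replicate 1 this total was 22886200, against 29766679 over all deposited rows. Tofogliflozin replicate 2 again was lowest and tofogliflozin replicate 3 highest. The means were 0.787% ± 0.0259 and 0.763% ± 0.0894 (SD of 3 mice each; exact permutation p = 0.9). Over these 4 shares the adjusted exact permutation p was 0.9 for the summed share and 0.8 for each paralog. The difference of the summed share, -0.024 percentage points, became 0.027 without tofogliflozin replicate 2.

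**Figure D4:**
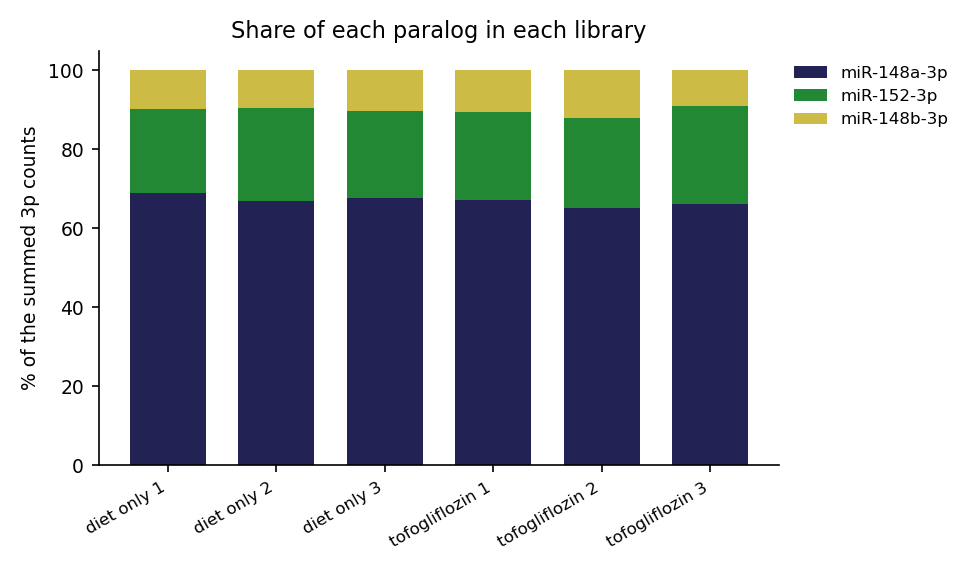
Share of miR-148a-3p, miR-152-3p and miR-148b-3p in their summed counts (stacked bars, % of the summed 3p counts) in each library. miR-148a-3p holds 65.3% to 68.9% in every library, and miR-148b-3p reaches its largest share, 12.0%, in tofogliflozin replicate 2.

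The arms of each hairpin were used very unequally, in favour of the 3p strand in all 3 hairpins and all 6 libraries. Of both arms of miR-148a, the 5p strand took 0.0671% ± 0.0244 of the counts, against 1.43% ± 0.239 for miR-148b and 0.773% ± 0.378 for miR-152 (SD, n = 6 libraries). Among the 111 hairpins whose less abundant arm averaged 10 counts or more, miR-148a had the lowest ratio of 5p to 3p counts, miR-152 was at place 11 and miR-148b at place 19 from that end. Counting skew towards either arm, miR-148a was at place 6. Hairpins with fewer counts in the lower arm are not in this order. The more abundant arm begins with U, as the 3p strands of the family do, in 52.2% of the 90 hairpins of this set whose arms both had a RefSeq sequence, and the less abundant arm in 25.6%.

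Arm use did not differ detectably between the groups. In limma on log2 of 5p over 3p counts, 0 of the 3 hairpins passed, beside 0% of the 111 hairpins, and for 0 of 3 did the groups not overlap, beside 6.31% of the 111. The log2 ratio of miR-148a was -10.5 ± 0.514 on the diet and -10.7 ± 0.733 with the inhibitor (SD of 3 mice each), a difference of -0.29 ± 0.44 (SE; interval -1.32 to 0.74; limma adjusted p = 0.946). It became 0.13 without tofogliflozin replicate 1. For miR-148b the ratio was -6.11 ± 0.106 and -6.11 ± 0.366 (SD of 3 mice each), and the interval of the difference was -0.68 to 0.68 (limma adjusted p = 1.0).

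Within the groups, however, single libraries differed by more than counting error. The 5p share of miR-148a was lowest in tofogliflozin replicate 1, at 0.0312% (95% Wilson interval 0.0208% to 0.0469%), and highest in diet-only replicate 2, at 0.101% (0.0807% to 0.127%). Diet-only replicate 1, at 0.0495% (0.0385% to 0.0637%), also lay below diet-only replicate 2 with no overlap of the intervals. For miR-148b the shares ran from 1.12% (0.946% to 1.33%) in tofogliflozin replicate 1 to 1.84% (1.51% to 2.23%) in tofogliflozin replicate 2. Reads carry no molecular identifiers in these tables, so the intervals cover counting error only.

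Of the 3 hairpins, miR-152 was the one whose arms varied most between mice given tofogliflozin. Its 5p strand was counted 257, 170 and 193 times on the diet alone and 200, 149 and 117 times with tofogliflozin. This was 0.675%, 0.650% and 0.699% of both arms in diet-only mice 1, 2 and 3, all within a narrow band. In tofogliflozin mice 1, 2 and 3 it was 0.812% (95% Wilson interval 0.707% to 0.932%), 1.47% (1.25% to 1.72%) and 0.329% (0.275% to 0.395%). Replicates 2 and 3 thus lay above and below all diet-only libraries, on opposite sides. The same was seen in other hairpins, among them miR-191, miR-30e and miR-501, so it was not particular to miR-152. The SD of the log2 arm ratio with tofogliflozin was 1.09 for miR-152 and 1.39 for miR-501. For miR-152 the difference between the groups was 0.13 ± 0.52 on the log2 scale (SE; interval -1.07 to 1.32; limma adjusted p = 1.0), -0.38 without tofogliflozin replicate 2 and 0.70 without tofogliflozin replicate 3. miR-152-5p itself was at 12.1 ± 0.679 CPM and 14.5 ± 7.88 CPM (SD of 3 mice each), with 14.8, 22.2 and 6.47 CPM in tofogliflozin mice 1, 2 and 3. The library with the highest and the one with the lowest 5p share are those at the opposite ends of the first principal component of all miRNAs, and the part of that component in the arm ratio was not tested. miR-7a-5p (0.14), miR-30e-5p (0.16) and miR-155-5p (0.16) had the patterns most like that of miR-152-5p.

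**Figure D5:**
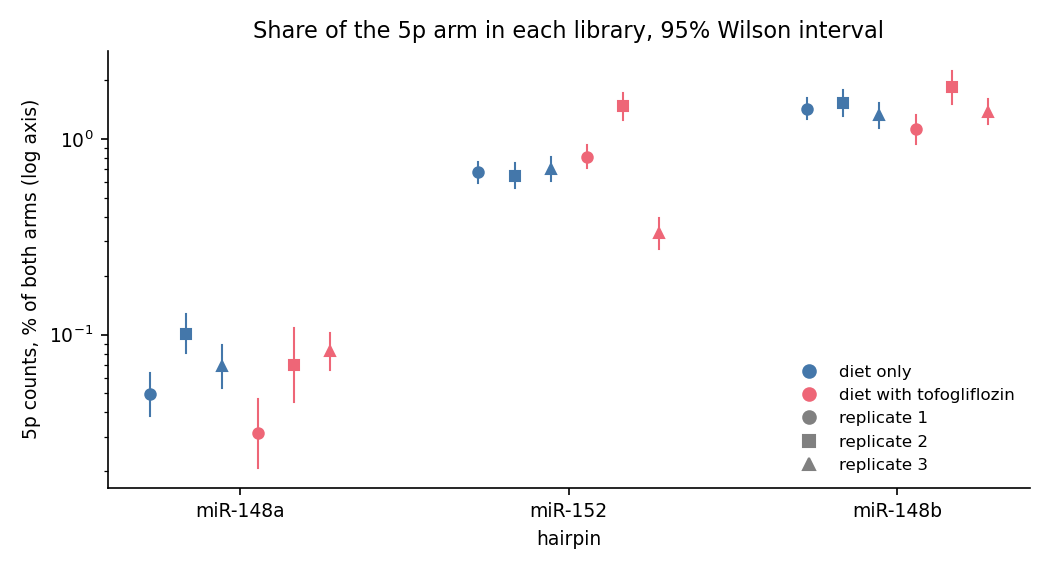
Share of the 5p arm in the counts of both arms of each hairpin (log axis) in each library, with 95% Wilson intervals. miR-148a lies below 0.127% in every library, and for miR-152 tofogliflozin replicates 2 (1.47%) and 3 (0.329%) lie on either side of the diet-only libraries.

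Other miRNAs with roles like those described for the family were compared in the same edgeR fit. For comparison, 226 of all 460 miRNAs had a log2 fold change above 0 and 234 below, with a median of -0.0052. Of 13 listed miRNAs described as acting on cholesterol and lipoprotein genes, 9 were tested and 0 passed in either direction, with 3 above 0, 6 below and a median log2 fold change of -0.15. miR-27a-3p, described as acting on lipid genes, was at 7897 ± 1183 CPM and 5741 ± 2052 CPM (SD of 3 mice each). Its log2 fold change was -0.46 ± 0.26 (edgeR adjusted p = 0.854), and -0.20 without tofogliflozin replicate 2. The hepatocyte miRNA miR-122-5p was at 1.07 ± 0.65 (edgeR adjusted p = 0.854), which was -0.18 without tofogliflozin replicate 2. The summed level of the 9 tested miRNAs of this list was 17624 CPM in tofogliflozin replicate 2 and 27688 to 34966 CPM in the other 5 libraries. Most of that sum came from miR-27a-3p and miR-27b-3p, the second at 20098 ± 1608 CPM and 16894 ± 6004 CPM (SD of 3 mice each).

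Of 8 miRNAs described as acting on DNA methyltransferases, all 8 were tested and 0 passed in either direction, with 2 above 0, 6 below and a median log2 fold change of -0.16. That median was 0.015 without tofogliflozin replicate 2. miR-185-5p (-0.19 ± 0.14) and miR-29c-3p (-0.27 ± 0.26), a member of the miR-29 family that represses collagen and DNA methyltransferase genes, had the smallest p. Without tofogliflozin replicate 2, miR-185-5p was at -0.20 and miR-29c-3p at -0.040. The miR-130 and miR-301 family has the seed AGUGCAA, which overlaps that of miR-148 with a shift of 1 base. Of its 5 listed members, 2 were tested, 0 passed, and both had values above 0, miR-130a-3p 0.14 ± 0.19 and miR-301a-3p 0.81 ± 0.88, the second of which was -0.17 without tofogliflozin replicate 2. At 32.1 ± 4.97 CPM and 35.4 ± 4.56 CPM (SD of 3 mice each), miR-130a-3p was the more abundant of these 2 and lay below each 3p strand of the miR-148 and miR-152 family in every library.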

How the data were processed

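Small RNA of renal cortex was sequenced from 6 mice. Per the labels, NucleoSpin miRNA columns gave the RNA and the NEBNext multiplex kit the small RNA libraries. The authors deposited whole-number read counts for each precursor and mature miRNA (2033 rows per library), with no normalization. Per the submitters' processing notes, cutadapt 1.14 and build mm10 were used; the sources used here name no aligner, counter or miRBase release. Repeated rows of a name (75 names, no member among them) were reduced to the largest count per library. Columns of other samples numbered 0.

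Differences were tested over the whole table by the 2-sided quasi-likelihood test of edgeR 4.0.16 (R 4.3.3), with TMM factors and filterByExpr at its defaults (count 10, total 15). The contrast was tofogliflozin minus diet only without covariates, and p-values were adjusted by Benjamini-Hochberg with a threshold of 0.05. SE is the absolute log2 fold change over the square root of F. Log2 CPM used a prior count of 2. Arm ratios were tested with limma 3.58.1 over hairpins whose less abundant arm averaged 10 counts or more, and count ratios by exact permutation, each with a pseudocount of 1. Alternatives were RLE, upper quartile or no size factors, no filter or 10 CPM in 3 libraries, DESeq2 1.42.0, limma-voom, the replicate number as a block, summed rows, other pseudocounts and arm filters, and each library left out. The tests were tested on simulated data.

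A count of 0 allowed up to 0.131 to 0.452 CPM (3 counts, counting error only). Named miRNAs were the members, miR-152-5p, the 3 most alike of each, and the 2 of smallest p in each list. Further miRNAs and hairpins are named where a sum or a comparison turned on them. Members and lists were chosen with earlier results of these data known. miR-142a of the leukocyte list was matched to miR-142 in the tables.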

Additional observations from a re-analysis of the deposited data

How the results depend on the processing

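No alternative brought a member or an arm ratio of the family past its threshold, and of 317 values under alternatives 26 changed sign. With the filter of 10 CPM in 3 libraries, miR-148a-5p was removed and so was not tested in that setting. The paralog ratios could not pass 0.05 under any setting, because their smallest exact permutation p is 0.1. Without tofogliflozin replicate 3 that smallest p was reached by miR-148b-3p over miR-148a-3p (difference 0.24) and by miR-148b-3p over miR-152-3p (0.19). The values that changed sign were as follows; the cause was not tested. With upper quartile size factors miR-148b-3p was at -0.025 and miR-148b-5p at -0.028, with no filter on low counts at -0.014 and -0.0066, and with library totals alone miR-152-3p was at 0.015. limma-voom put miR-148b-5p at -0.034, miR-152-5p at -0.010 and miR-301a-3p at -0.056, and a pseudocount of 0.5 put the arm difference of miR-148b at -0.0017. With 1 library left out, log2 fold changes ran from -0.14 to -0.014 for miR-148a-3p, -0.0058 (without tofogliflozin replicate 1) to 0.10 for miR-148b-3p, -0.090 to 0.081 for miR-152-3p, -0.77 to -0.045 for miR-148a-5p, -0.19 to 0.18 for miR-148b-5p and -0.19 to 0.63 for miR-152-5p. The difference of miR-148b-3p over miR-152-3p ran from -0.077 to 0.19, the arm differences from -0.54 to 0.13 (miR-148a), -0.19 to 0.17 (miR-148b) and -0.38 to 0.70 (miR-152), and that of the summed 3p share from -0.058 to 0.027 percentage points. Outside the family, miR-122-5p ran from -0.18 to 1.4996, miR-301a-3p from -0.17 to 1.48, and the list medians from -0.068 to 0.84 (miR-130 and miR-301) and -0.19 to 0.015 (DNA methyltransferases).

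Over all miRNAs the count of calls was 0 in edgeR with the default filter (23 at an unadjusted p under 0.05), 10 with no filter on low counts and 2 with DESeq2, and 0 under the other alternatives and with each library left out. miR-122-5p passed with no filter (1.04, edgeR adjusted p = 4.2e-04). Deviations from the group means were not shared by mice of the same number (across miRNAs r = 0.0027, -0.14 and -0.17 for numbers 1, 2 and 3, each matching another number best). With 3 mice per group these values cannot exclude a pairing, and the labels state none. With the replicate block 0 miRNAs and 0 hairpins were called, and miR-148a-3p was at -0.12, miR-148b-3p at 0.0075, miR-152-3p at -0.032, miR-148a-5p at -0.41 and miR-148b-5p at 0.0012.

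Behind each value stood 20 to 78 counts for miR-148a-5p and 99 to 245 for miR-148b-5p, and 5283 or more for the 3p strands. Whether depth sets the wider intervals of the 5p strands was not tested.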
